A study of Ovis aries with 24 samples.

Results

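The livers of 4 preterm lambs that had been ventilated and given surfactant with budesonide were compared with the livers of 4 preterm lambs that had not been ventilated. Both groups were taken by their labels, and all genes of the 8 liver libraries were used, out of 12 liver libraries and 24 libraries of the study in all. The budesonide group was mechanically ventilated. These lambs were given poractant alfa, a surfactant prepared from pig lung, into the trachea at 2.5 mL/kg. The synthetic glucocorticoid budesonide was given with it at 0.25 mg/kg. The unventilated group received neither surfactant nor budesonide. A further 4 lambs, ventilated with the same surfactant and no budesonide, entered the fit as the surfactant group and are the reference for what budesonide added. Budesonide animals 031, 048 and 050 were females of 126 days of gestation and animal 054 was a male of 127 days. Unventilated animals 057 and 058 were males of 127 days, animal 059 was a female of 128 days and animal 060 was of 128 days with no sex labelled for the liver. Surfactant animal 007 was of 127 days and animals 032, 049 and 051 were of 126 days. That group had 1 male and 3 females by label. Each library came from 1 animal. The sources used here do not give the breed, the length of ventilation, any steroid given before birth, or whether the groups were handled and sequenced together. The comparison thus holds ventilation, surfactant, budesonide and a younger age on 1 side, and their shares cannot be told apart within it. The sexes were also unbalanced, with 3 females and 1 male against 1 female, 2 males and 1 animal without a label.

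Glucocorticoids bind the glucocorticoid receptor, a transcription factor that raises genes of glucose production, amino acid breakdown and feedback control while it restrains many inflammatory genes. The fetal liver makes blood cells and plasma proteins, and around birth it takes on glucose release, fat oxidation and the clearance of bile acids and drugs. It also answers cytokines that reach it from other organs with the acute phase response, the secretion of defence proteins into plasma.

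Levels are counts per M, or 1e6 counts (CPM), after trimmed-mean scaling. Values by animal are given in the order 057, 058, 059 and 060 for the unventilated livers, 007, 032, 049 and 051 for the surfactant livers and 031, 048, 050 and 054 for the budesonide livers. Changes are log2 differences of budesonide and ventilation minus unventilated, with SE, and a gene was called higher or lower where its edgeR quasi-likelihood p, adjusted by Benjamini-Hochberg over 16824 genes, was under 0.05. Total counts were 16.1 to 18.0 M in the budesonide group and 16.4 to 19.4 M in the unventilated group. Hepatocyte genes were abundant in every library: albumin (ALB) was at 64255, 60618, 79116 and 61831 CPM in unventilated and 49364, 40189, 63557 and 39277 CPM in budesonide livers. On the first principal component of the 500 most variable genes, which held 70.9% of their variance, the unventilated livers lay from -55.8 to -53.3 and the budesonide livers from 17.3 to 35.8. The surfactant livers lay at -4.77, 25.4, 36.04 and 49.2 on it, a range that holds all budesonide livers. On the second component (12.4%) the budesonide livers lay from -24.7 to -13.2 and the surfactant livers from -1.97 to 34.01.

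A large part of the liver transcriptome differed. Of 16824 genes tested, 3918 were called higher (23.3%) and 3985 lower (23.7%) with budesonide and ventilation, 47% in all. The CPM ranges of both groups did not overlap for 48.8% of genes. At least 4-fold changes were called for 789 genes higher (4.69%) and 817 lower (4.86%), and at least 16-fold changes for 195 higher and 77 lower. Fewer genes were called when the ages of the animals were taken into account. With gestational age as a covariate 1499 were called higher and 1459 lower, and between animals of 127 days (budesonide animal 054 against unventilated animals 057 and 058) 2008 were called higher and 1698 lower. These are bulk tissue levels, in which fewer cells of a type and less RNA per cell cannot be told apart.

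**Figure D1:**
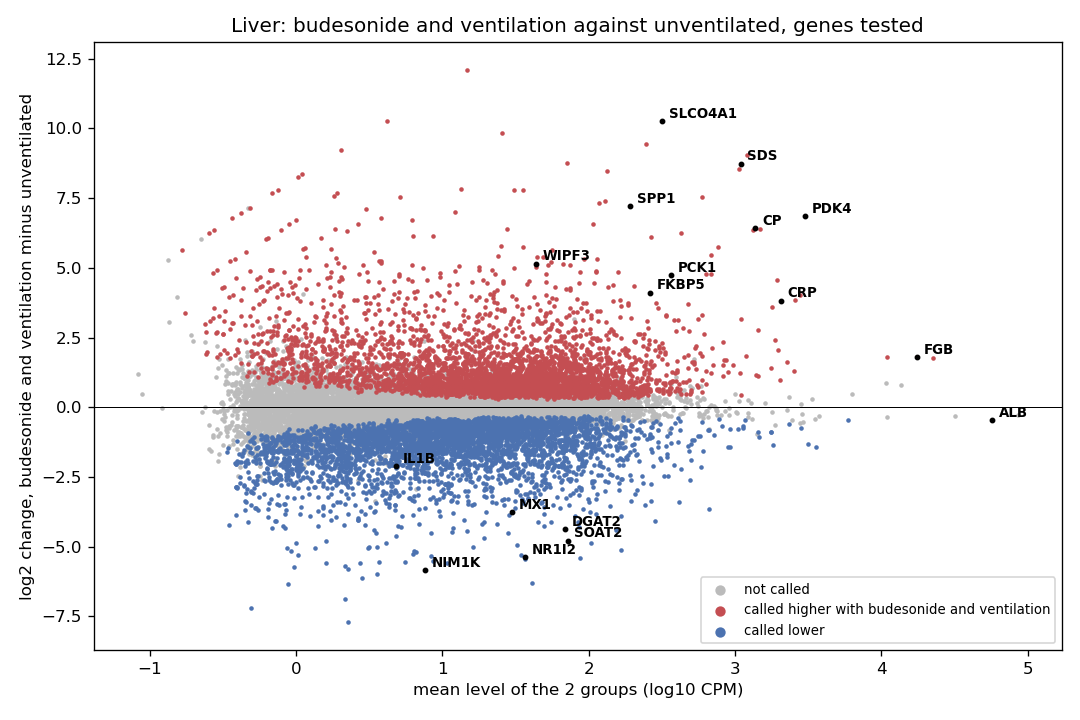
Each point is 1 gene tested, by its mean level in the budesonide and unventilated livers (log10 CPM) and its log2 change; red points were called higher, blue points lower and grey points not called. Among the labelled genes SLCO4A1, SDS and SPP1 stand highest, and NIM1K and NR1I2 lowest.

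Against this background, gene lists for liver functions differed in how many members were called and in which direction. Glucocorticoid-responsive genes and cytosolic ribosomal protein genes were mostly called higher, and bile acid and drug metabolism, sterol biosynthesis and interferon-stimulated genes mostly lower. For surfactant minus unventilated the median log2 changes of these lists were, in the same order, 2.24, 0.67, -1.16, -1.23 and -0.07. Counts of each list below are to be read beside those over all genes tested. These were 23.3% higher and 23.7% lower, or 1499 and 1459 of 16824 genes with age as a covariate. Called members named from the lists were mostly those with the smallest adjusted p. Their separate CPM ranges are therefore a description, to be read beside the 48.8% of all genes without overlap.

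**Figure D2:**
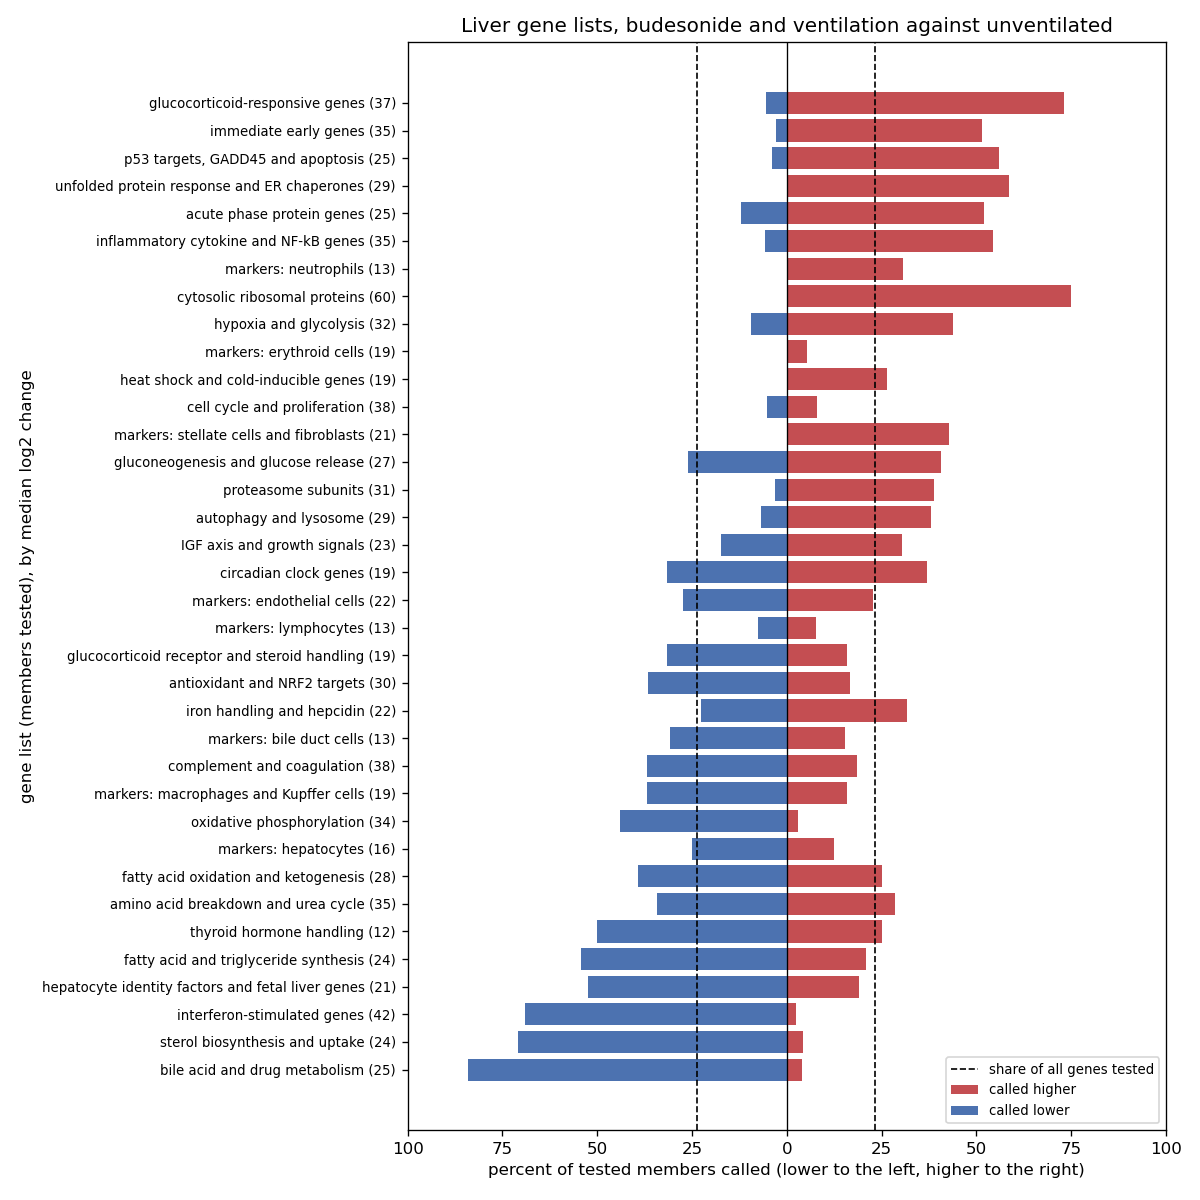
Bars give the percent of each list's tested members called higher (red, to the right) or lower (blue, to the left), with lists ordered by median log2 change and the number tested in brackets. The dashed lines mark the shares over all genes tested, 23.3% higher and 23.7% lower.

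Of 37 glucocorticoid-responsive genes tested, 27 were called higher and 2 lower, with a median log2 change of 2.59 against 0.00067 over all genes tested. FKBP5, a co-chaperone that binds the glucocorticoid receptor complex and dampens its signalling, was at 27.99, 43.6, 13.9 and 28.8 CPM in unventilated and 473, 523, 526 and 457 CPM in budesonide livers. Each budesonide liver was above every unventilated one (log2 4.11 ± 0.36, edgeR adjusted p = 7.94e-06). The surfactant livers held 87.6, 61.9, 69.03 and 151 CPM, all below the budesonide livers (log2 2.42 ± 0.34, edgeR adjusted p = 0.00168 for budesonide minus surfactant). PER1, a clock gene that the hormone induces directly, was at 27.1, 16.9, 19.4 and 14.6 CPM in unventilated and 101, 98.4, 98.6 and 63.4 CPM in budesonide livers. PER1 rose, with a log2 change of 2.21 ± 0.30 and an edgeR adjusted p of 9.27e-05. Animal 054 was lowest of the budesonide livers in PER1 and still above all unventilated and surfactant livers, the last at 50.7, 21.7, 29.5 and 22.2 CPM (log2 1.54 ± 0.29, edgeR adjusted p = 0.00692 against surfactant). GLUL, glutamine synthetase, was at 170.0, 149.9, 110.1 and 124 CPM in unventilated and 338, 330.0, 341 and 422 CPM in budesonide livers and at 164, 114, 91.5 and 119 CPM with surfactant alone. The budesonide livers were above both other groups (log2 1.37 ± 0.20, edgeR adjusted p = 0.000149 against unventilated and log2 1.55 ± 0.20, edgeR adjusted p = 0.0012 against surfactant).

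Other members of the list had surfactant levels nearer to those with budesonide. ZBTB16, a transcriptional repressor used as a marker of steroid exposure, was at 3.32, 2.10, 4.23 and 3.21 CPM in unventilated and 80.04, 82.3, 86.7 and 49.002 CPM in budesonide livers (log2 4.54 ± 0.42, edgeR adjusted p = 1.03e-05), and at 15.3 to 52.1 CPM with surfactant. DUSP1, a phosphatase that switches off MAP kinases, was at 26.9, 30.1, 26.3 and 20.6 CPM in unventilated and 349, 483, 342 and 205 CPM in budesonide livers (log2 3.73 ± 0.51, edgeR adjusted p = 0.000113), and at 37.2 to 251 CPM with surfactant. IRS2, an adaptor of the insulin receptor, was at 4.87, 5.80, 3.65 and 5.54 CPM in unventilated and 31.7, 35.8, 32.2 and 29.8 CPM in budesonide livers (log2 2.70 ± 0.22, edgeR adjusted p = 5.03e-06), and its surfactant levels of 21.3 to 39.1 CPM covered the budesonide range. For these 3 genes the budesonide and unventilated ranges did not overlap, and none was called between the ventilated groups.

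TSC22D3, the leucine zipper protein GILZ that mediates anti-inflammatory effects of the hormone, was at 116, 76.05, 59.5 and 62.3 CPM in unventilated and 271, 117, 222 and 107 CPM in budesonide livers. Animals 031 and 050 were highest, and animal 054, at 127 days, lay below unventilated animal 057 (log2 1.19 ± 0.39, edgeR adjusted p = 0.0238). That call ended when any of unventilated animals 058, 059 and 060 or budesonide animals 031 and 050 was left out, with edgeR adjusted p up to 0.0776, and between animals of 127 days the change was log2 0.15, edgeR adjusted p = 0.83. Surfactant livers held 38.03 to 105 CPM of TSC22D3, all below the budesonide livers (log2 1.63 ± 0.39, edgeR adjusted p = 0.0207 for budesonide minus surfactant). This call ended without surfactant animal 032 or 049 or budesonide animal 031. The 2 members called lower were NR3C1, a gene set to be considered whatever its result, and CDKN1C, which was singled out after its values were seen. NR3C1, the glucocorticoid receptor itself, was at 107, 76.2, 115 and 107 CPM in unventilated and 54.4, 64.6, 79.8 and 45.5 CPM in budesonide livers. NR3C1 fell, with a log2 change of -0.73 ± 0.20 and an edgeR adjusted p of 0.00927. The NR3C1 ranges overlapped, and the call was lost with age as a covariate (log2 -0.69, edgeR adjusted p = 0.17) and between animals of 127 days (log2 -1.01, edgeR adjusted p = 0.0505). CDKN1C, an imprinted inhibitor of cell division, was at 40.7, 32.8, 51.9 and 46.3 CPM in unventilated and 9.49, 6.82, 14.1 and 10.2 CPM in budesonide livers (log2 -2.08 ± 0.32, edgeR adjusted p = 0.000258), a call lost between animals of 127 days (log2 -1.85, edgeR adjusted p = 0.0564). The list had 21 members called higher and 1 lower with age as a covariate. Between the ventilated groups 9 members were called higher with budesonide and 1 lower, where 4.01% of all genes were called higher and 7.85% lower.

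The list of the glucocorticoid receptor, its partners and steroid handling moved less, with 3 of 19 members called higher, FKBP5 among them, and 6 lower (median log2 -0.13). NCOA1, a coactivator of steroid receptors, was at 55.8, 52.3, 64.3 and 54.4 CPM in unventilated and 18.8, 27.2, 32.2 and 23.3 CPM in budesonide livers. NCOA1 fell, with a log2 change of -1.16 ± 0.20 and an edgeR adjusted p of 0.000472. AKR1D1, which reduces steroid hormones and bile acid precursors, was at 203, 207, 245 and 218 CPM in unventilated and 101, 88.7, 142 and 74.8 CPM in budesonide livers. AKR1D1 fell, with a log2 change of -1.10 ± 0.20 and an edgeR adjusted p of 0.000856. All budesonide livers were below all unventilated ones for both.

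**Figure D3:**
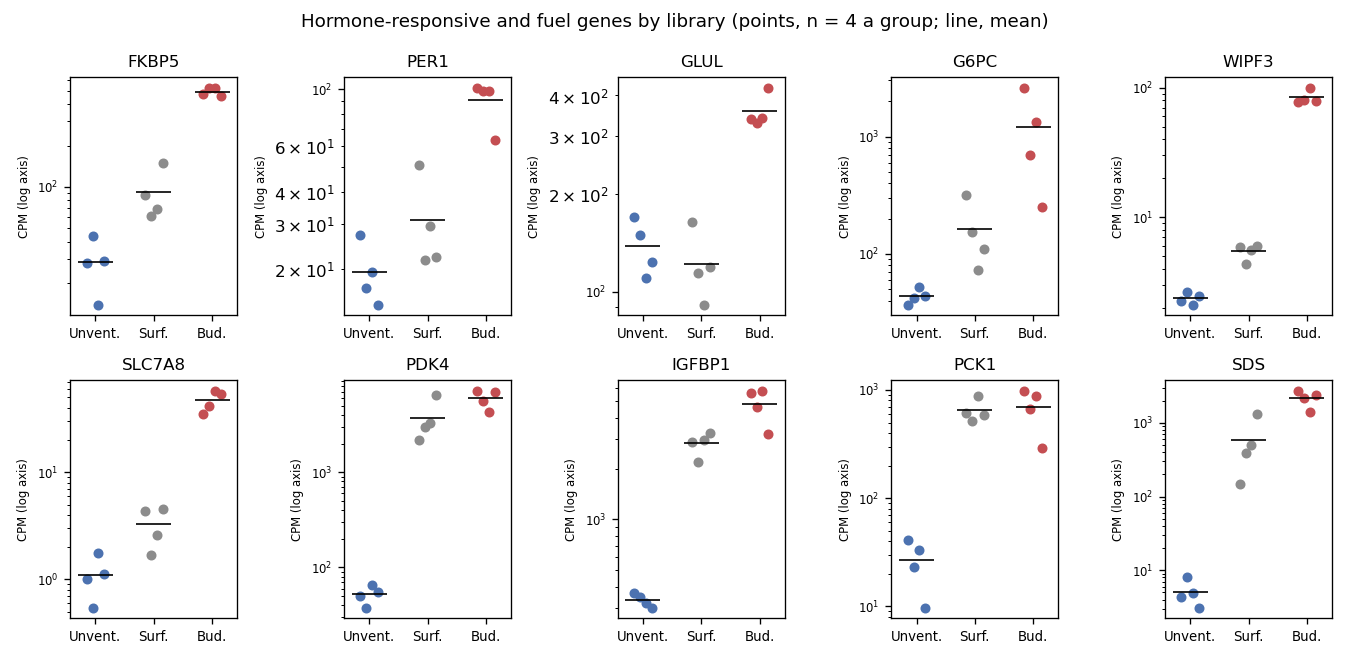
CPM of each library (points, log axis) with the group mean (line) for 10 hormone-responsive and fuel genes in the unventilated, surfactant and budesonide livers, 4 animals each. FKBP5, PER1, GLUL, WIPF3, SLC7A8 and SDS have all budesonide points above both other groups, while PCK1 and PDK4 overlap between the ventilated groups.

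Several genes of glucose production and fuel choice rose steeply. PCK1, which catalyses the committed step of gluconeogenesis, was at 40.7, 22.9, 32.9 and 9.73 CPM in unventilated and 978, 669, 874 and 288 CPM in budesonide livers. The lowest budesonide liver, animal 054, was above the highest unventilated one (log2 4.73 ± 0.48, edgeR adjusted p = 1.83e-05), and PCK1 with surfactant lay at 519.8 to 886 CPM, overlapping the budesonide range. G6PC, which releases free glucose from the liver, was at 37.1, 42.5, 52.3 and 44.1 CPM in unventilated and 2588, 692, 1333 and 253 CPM in budesonide livers. The budesonide livers differed widely in G6PC, with animal 054 lowest and animal 031 highest, and all 4 were above the unventilated livers (log2 4.79 ± 0.67, edgeR adjusted p = 0.00013). With surfactant alone G6PC was at 319, 153, 73.4 and 109 CPM, of which animal 007 was above budesonide animal 054 (log2 2.89 ± 0.61, edgeR adjusted p = 0.0118 for budesonide minus surfactant). PC, pyruvate carboxylase, rose from 103 ± 21.5 to 689.8 ± 172 CPM (mean ± SD, n = 4; log2 2.75 ± 0.29, edgeR adjusted p = 2.01e-05). PPP1R3B, which directs glycogen synthesis, was at 326, 209.9, 430.2 and 289 CPM in unventilated and 13.5, 31.4, 28.8 and 10.9 CPM in budesonide livers. PPP1R3B fell, with a log2 change of -3.89 ± 0.43 and an edgeR adjusted p of 3.07e-05. The whole list of gluconeogenesis and glucose release was mixed, with 11 of 27 called higher and 7 lower (median log2 0.26).

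PDK4, the kinase that blocks pyruvate entry into mitochondria and so spares glucose, was at 50.2, 37.9, 64.7 and 55.1 CPM in unventilated and 7129, 5635, 4298 and 6914 CPM in budesonide livers. This change (log2 6.85 ± 0.39, edgeR adjusted p = 7.85e-07) was a 115-fold rise in mean CPM. Surfactant livers held 2195, 3007, 3299 and 6469.8 CPM of PDK4, and animal 051 of that group lay inside the budesonide range. CPT1A, the entry step of fatty acids into mitochondria, was at 72.4, 74.6, 64.03 and 73.004 CPM in unventilated and 457, 333, 436 and 372 CPM in budesonide livers. CPT1A rose, with a log2 change of 2.49 ± 0.22 and an edgeR adjusted p of 8.36e-06. Its surfactant levels, 208, 102, 108 and 160.0 CPM, were all lower than with budesonide (log2 1.47 ± 0.22, edgeR adjusted p = 0.00209 for that difference). EHHADH, an enzyme of peroxisomal fatty acid oxidation, was at 374, 285, 503 and 360.4 CPM in unventilated and 47.2, 56.5, 45.1 and 45.1 CPM in budesonide livers. EHHADH fell, with a log2 change of -2.97 ± 0.30 and an edgeR adjusted p of 1.5e-05. Over the list of fatty acid oxidation and ketogenesis 7 of 28 members were called higher and 11 lower (median log2 -0.31), or 6 and 5 with age as a covariate.

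In amino acid metabolism SDS, serine dehydratase, which feeds serine into gluconeogenesis, was at 4.29, 8.08, 4.94 and 3.13 CPM in unventilated and 2704, 2192, 1409 and 2410.5 CPM in budesonide livers. This was a 427-fold rise (log2 8.73 ± 0.71, edgeR adjusted p = 5.03e-06), and the surfactant livers held 148, 386, 502 and 1334 CPM, below every budesonide liver. OTC, ornithine transcarbamylase of the urea cycle, went the other way and was at 188, 153, 234 and 177 CPM in unventilated and 31.8, 14.1, 34.7 and 23.5 CPM in budesonide livers. OTC fell, with a log2 change of -2.85 ± 0.27 and an edgeR adjusted p of 1.02e-05. FAH, the last enzyme of tyrosine breakdown, was at 70.2, 62.5, 86.8 and 70.9 CPM in unventilated and 21.7, 18.6, 23.6 and 23.9 CPM in budesonide livers (log2 -1.72 ± 0.15, edgeR adjusted p = 6.17e-06), and also lay below its surfactant levels of 30.1 to 39.1 CPM (log2 -0.66 ± 0.15, edgeR adjusted p = 0.0141). CPS1, the first enzyme of the urea cycle, was at 2543, 2437, 3678 and 2769 CPM in unventilated and 2216, 1706, 2979.6 and 1359 CPM in budesonide livers and was not called (log2 -0.47 ± 0.24, edgeR adjusted p = 0.13), although it was called lower without animal 050. Of 35 members of this list 10 were called higher and 12 lower (median log2 -0.38).

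TAT, tyrosine aminotransferase, a classical glucocorticoid-induced liver enzyme, was not called against unventilated livers and was called higher than with surfactant alone, just under the threshold. It was at 358, 333, 517 and 322 CPM in unventilated and 338, 169.8, 297 and 57.8 CPM in budesonide livers, with animal 054 far below the rest, and the change was log2 -0.83 ± 0.50, edgeR adjusted p = 0.19. Surfactant livers held 126, 35.2, 50.6 and 36.5 CPM (log2 1.80 ± 0.51, edgeR adjusted p = 0.0405 for budesonide minus surfactant), and animal 054 lay inside their range. This call ended with no filter on low counts, with sex as a covariate and without any 1 of unventilated animals 057, 058 and 060, surfactant animals 032, 049 and 051 or budesonide animals 031, 048 and 050. Between animals of 127 days TAT was called lower (log2 -2.58, edgeR adjusted p = 0.00548).

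Acute phase genes were called higher for 13 of 25 members and lower for 3, with a median log2 change of 0.99. With age as a covariate 8 were called higher and 0 lower. CRP, C-reactive protein, was at 245, 257, 289.8 and 296 CPM in unventilated and 3819.8, 3101, 4033 and 4492 CPM in budesonide livers. CRP rose, with a log2 change of 3.83 ± 0.39 and an edgeR adjusted p of 1.71e-05. CP, ceruloplasmin, the copper-carrying ferroxidase of plasma, was at 42.9, 30.2, 15.4 and 38.4 CPM in unventilated and 4311, 3291, 1701 and 1604 CPM in budesonide livers. CP rose, with a log2 change of 6.42 ± 0.59 and an edgeR adjusted p of 9.47e-06. STEAP4, a metal reductase induced by cytokines, was at 15.99, 9.45, 3.76 and 15.2 CPM in unventilated and 491, 967, 435 and 1489 CPM in budesonide livers. STEAP4 rose, with a log2 change of 6.25 ± 0.62 and an edgeR adjusted p of 1.43e-05. Every budesonide liver was above every unventilated one for these 3, and the surfactant ranges, 1256 to 6438 CPM for CRP, 1588 to 5814 CPM for CP and 687 to 2307 CPM for STEAP4, overlapped the budesonide ranges. ITIH4, a heavy chain of the inter-alpha-trypsin inhibitor family, was at 478 to 779 CPM unventilated and 2822 to 3688 CPM with budesonide (log2 2.40 ± 0.24, edgeR adjusted p = 1.43e-05). The fibrinogen chains FGB and FGG, which form the clot, were at 7037 to 9133 CPM unventilated and 24803 to 30588 CPM with budesonide for FGB (log2 1.80 ± 0.18, edgeR adjusted p = 1.64e-05) and 4330.1 to 5733 CPM unventilated and 14204 to 18489.7 CPM with budesonide for FGG (log2 1.81 ± 0.18, edgeR adjusted p = 1.64e-05). HAMP, hepcidin, the hormone that lowers plasma iron, was at 43.8, 37.8, 89.1 and 32.6 CPM in unventilated and 250.3, 129, 295 and 203 CPM in budesonide livers (log2 2.11 ± 0.43, edgeR adjusted p = 0.00173), a call lost with age as a covariate (log2 1.87, edgeR adjusted p = 0.0899).

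AHSG and ALB, both abundant plasma protein genes, differed less than the fibrinogen chains FGB and FGG. AHSG, fetuin-A, which took more counts than any other gene, was at 99301, 81365, 107967 and 88849.9 CPM in unventilated and 71358, 66215, 92095 and 78572 CPM in budesonide livers and was not called (log2 -0.29 ± 0.17, edgeR adjusted p = 0.16). ALB was called lower (log2 -0.47 ± 0.18, edgeR adjusted p = 0.0443), but animal 050 lay within the unventilated range, and the call was lost under median-ratio scaling and without any of 7 of the 8 libraries compared, animal 050 being the exception.

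Inflammatory cytokine and NF-kB genes were higher than unventilated in part. Of 35 tested, 19 were called higher and 2 lower (median log2 0.98). LBP, which carries bacterial endotoxin, was at 41.96, 35.7, 8.11 and 34.5 CPM in unventilated and 1354, 1729, 604 and 1638 CPM in budesonide livers. LBP rose, with a log2 change of 5.47 ± 0.62 and an edgeR adjusted p of 3.39e-05. IL1R1, the signalling receptor for interleukin 1, was at 58.6, 40.8, 42.5 and 43.04 CPM in unventilated and 569, 819.9, 351 and 466 CPM in budesonide livers. IL1R1 rose, with a log2 change of 3.58 ± 0.31 and an edgeR adjusted p of 6.87e-06. SOCS3, which shuts cytokine receptors down again, was at 6.31, 5.43, 6.29 and 7.46 CPM in unventilated and 66.8, 85.5, 67.9 and 110.0 CPM in budesonide livers. SOCS3 rose, with a log2 change of 3.69 ± 0.45 and an edgeR adjusted p of 5.06e-05. For all 3 the groups did not overlap. In the surfactant livers SOCS3 was at 58.2, 212, 348 and 324 CPM, with animal 007 below every budesonide liver and the others above.

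Cytokines themselves behaved otherwise. IL1B, which encodes interleukin 1 beta, was at 8.09, 10.4, 5.12 and 7.72 CPM in unventilated and 3.43, 1.20, 1.28 and 1.35 CPM in budesonide livers, so that each budesonide liver was below each unventilated one (log2 -2.10 ± 0.80, edgeR adjusted p = 0.0461). With surfactant alone IL1B was at 12.9, 12.8, 140.5 and 176 CPM, and the difference between the ventilated groups was called (log2 -5.55 ± 0.88, edgeR adjusted p = 0.00329). The call against unventilated was lost with no filter on low counts, with age as a covariate (log2 -3.66, edgeR adjusted p = 0.053), between animals of 127 days (log2 -2.77, edgeR adjusted p = 0.18) and without any 1 of the unventilated animals or of budesonide animals 048, 050 and 054, with edgeR adjusted p up to 0.11. IL18, a cytokine of macrophages that was singled out after its values were seen, was the other member called lower, at 9.35, 11.96, 12.2 and 12.01 CPM in unventilated and 4.31, 5.96, 4.89 and 5.47 CPM in budesonide livers (log2 -1.14 ± 0.20, edgeR adjusted p = 0.000601), a call lost with age as a covariate (log2 -0.85, edgeR adjusted p = 0.0594) and between animals of 127 days (log2 -0.96, edgeR adjusted p = 0.0822). IL6, which drives acute phase synthesis, had no counts in the unventilated livers and 3.09, 0.344, 0.175 and 0.129 CPM in the budesonide livers, nearly all of it in animal 031. Its mean was at least 25.5-fold higher when 3 counts were assigned to the unventilated group as a floor, but edgeR did not call it (adjusted p = 0.194), and surfactant animals 049 and 051 held 113 and 142 CPM of IL6.

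CXCL8, a chemokine for neutrophils, was at 0.145, 0.137, 0.118 and 0.0893 CPM in unventilated and 3.38, 2.01, 1.45 and 1.67 CPM in budesonide livers. The groups did not overlap, and CXCL8 fell just short of a call (log2 4.05 ± 1.58, edgeR adjusted p = 0.0501). ICAM1, an adhesion molecule for leukocytes, was at 49.6, 45.9, 40.5 and 46.4 CPM in unventilated and 91.04, 109, 118 and 98.5 CPM in budesonide livers and also did not overlap (log2 1.19 ± 0.47, edgeR adjusted p = 0.0549). The surfactant livers, whose spread enters the fit, held 0.445, 1.56, 40.2 and 96.3 CPM of CXCL8 and 127, 109.5, 562 and 663 CPM of ICAM1. In a fit of the 8 libraries alone both were called higher, with edgeR adjusted p = 3.55e-05 for CXCL8 and 5e-05 for ICAM1. Age as a covariate left 8 members of the list called higher and 0 lower. Between the ventilated groups 0 were called higher and 15 lower with budesonide, where 4.01% of all genes were called higher and 7.85% lower.

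Interferon-stimulated genes, the antiviral programme that cells switch on through the interferon receptors, were mostly called lower. Of 42 tested, 29 were called lower than in unventilated livers and 1 higher, with a median log2 change of -1.19. MX1, a GTPase that blocks viral replication, was at 68.8, 76.1, 24.9 and 54.4 CPM in unventilated and 4.37, 2.64, 3.84 and 5.59 CPM in budesonide livers. MX1 fell, with a log2 change of -3.77 ± 0.44 and an edgeR adjusted p of 4.2e-05. The surfactant livers held 17.7, 16.3, 42.4 and 43.9 CPM of MX1, again above every budesonide liver (log2 -2.87 ± 0.43, edgeR adjusted p = 0.0023). MX2, a related GTPase, was at 25.2, 34.4, 5.64 and 26.8 CPM in unventilated and 1.86, 1.83, 1.63 and 3.34 CPM in budesonide livers (log2 -3.41 ± 0.48, edgeR adjusted p = 0.000143), and at 17.9, 16.9, 16.3 and 31.2 CPM with surfactant (log2 -3.25 ± 0.48, edgeR adjusted p = 0.00218). Unventilated animal 059 was the lowest of its group for MX1 and MX2 and stayed above all budesonide livers.

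DHX58, which encodes the viral RNA sensor LGP2, was at 19.2, 25.1, 11.9 and 16.7 CPM in unventilated and 2.39, 3.15, 1.98 and 3.15 CPM in budesonide livers (log2 -2.77 ± 0.29, edgeR adjusted p = 1.85e-05), with 5.34 to 11.01 CPM in the surfactant livers (log2 -1.66 ± 0.28, edgeR adjusted p = 0.00449). IFI44L, an interferon-induced gene, was at 19.7, 18.8, 9.70 and 14.7 CPM in unventilated and 2.91, 3.38, 2.91 and 4.63 CPM in budesonide livers (log2 -2.18 ± 0.28, edgeR adjusted p = 6.62e-05), with 8.27 to 14.1 CPM in the surfactant livers (log2 -1.65 ± 0.28, edgeR adjusted p = 0.00419). CXCL10, a chemokine induced by interferon gamma, was at 18.02, 19.7, 12.9 and 15.6 CPM in unventilated and 1.11, 1.09, 1.45 and 2.44 CPM in budesonide livers (log2 -3.44 ± 0.52, edgeR adjusted p = 0.000219), with 3.30 to 26.1 CPM in the surfactant livers (log2 -3.20 ± 0.52, edgeR adjusted p = 0.00351). For each of these genes no budesonide liver reached any unventilated or surfactant liver. The surfactant and unventilated ranges overlapped for IFI44L and CXCL10. Between animals of 127 days the CXCL10 value was log2 -2.95, edgeR adjusted p = 0.0523.

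The 1 member called higher, singled out after its values were seen, was IFIT2, which encodes an RNA-binding antiviral protein, at 24.7, 27.8, 17.8 and 21.3 CPM in unventilated and 32.6, 75.1, 19.3 and 334 CPM in budesonide livers. IFIT2 rose, with a log2 change of 2.33 ± 0.91 and an edgeR adjusted p of 0.0498. The IFIT2 ranges overlapped, animal 054 was highest, and leaving out any 1 of the unventilated animals, surfactant animals 032, 049 and 051 or budesonide animals 048 and 054 ended the call, as did age or sex as a covariate and no filter on low counts. Without animal 054 the IFIT2 change was log2 0.88 (edgeR adjusted p = 0.354). TRIM25, a ubiquitin ligase of the same antiviral pathway and the most abundant member not called, was at 182 to 201 CPM unventilated and 144 to 245 CPM with budesonide (log2 -0.06 ± 0.20, edgeR adjusted p = 0.82). With age as a covariate 23 members were called lower and 0 higher, and between animals of 127 days 18 lower and 1 higher. Against the surfactant group 26 were called lower and 0 higher, where 7.85% of all genes were called lower and 4.01% higher. Lymphocyte markers, summed over 18 genes of which 13 were tested, were at 57.9 to 67.5 CPM unventilated and 49.5 to 86.7 CPM with budesonide. Macrophage markers, over 19 genes, were at 1986 to 2181 and 1229.7 to 1648 CPM. The part of these cells in the interferon-stimulated levels was not tested.

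**Figure D4:**
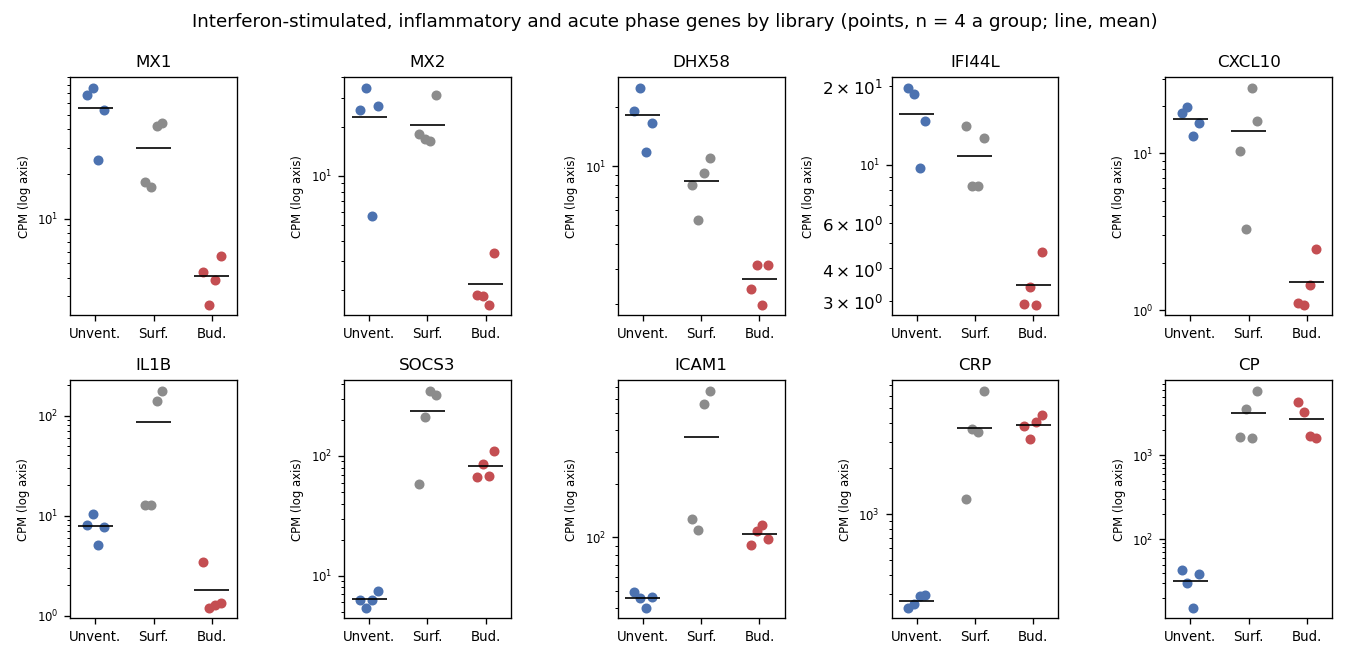
CPM of each library (points, log axis) with the group mean (line) for 5 interferon-stimulated genes, 3 inflammatory genes and 2 acute phase genes, 4 animals a group. In MX1, MX2, DHX58, IFI44L and CXCL10 the budesonide points lie below both other groups, in CRP and CP they overlap the surfactant points and lie above the unventilated ones, and in IL1B they lie lowest.

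Immediate early genes, transcription regulators that respond within minutes to cell stimulation, were called higher for 18 of 35 members and lower for 1 (median log2 1.99). BTG2, which restrains cell division, was at 173, 190.0, 153 and 104 CPM in unventilated and 3857, 3823, 2255 and 4807 CPM in budesonide livers. BTG2 rose, with a log2 change of 4.57 ± 0.32 and an edgeR adjusted p of 1.88e-06. KLF6, a zinc finger factor, was at 62.1 to 68.98 CPM unventilated and 301 to 433 CPM with budesonide (log2 2.38 ± 0.22, edgeR adjusted p = 9.85e-06), and BTG1, a relative of BTG2, at 209 to 301 CPM unventilated and 1049 to 1271 CPM with budesonide (log2 2.11 ± 0.21, edgeR adjusted p = 1.29e-05). Calls with age as a covariate numbered 10 higher and 1 lower. With surfactant BTG2 was at 1884 to 3923 CPM, KLF6 at 222 to 442 CPM and BTG1 at 860.1 to 1610 CPM, overlapping the budesonide ranges. The list's median log2 change was 2.85 for surfactant minus unventilated and -1.23 for budesonide minus surfactant. Between the ventilated groups 1 member was called higher with budesonide and 5 lower, where 4.01% of all genes were called higher and 7.85% lower. Among p53 targets, GADD45 genes and apoptosis genes 14 of 25 were called higher and 1 lower (median log2 1.18). GADD45G, a stress sensor, was at 3.18, 1.51, 2.29 and 1.38 CPM in unventilated and 92.3, 113, 56.03 and 87.2 CPM in budesonide livers (log2 5.38 ± 0.35, edgeR adjusted p = 1.63e-06), and BBC3, which encodes the death-promoting protein PUMA, at 2.50, 3.38, 2.94 and 3.26 CPM in unventilated and 10.4, 11.2, 11.3 and 14.5 CPM in budesonide livers. BBC3 rose, with a log2 change of 1.97 ± 0.23 and an edgeR adjusted p of 3.39e-05. In both the budesonide and unventilated groups were far apart. With surfactant GADD45G was at 29.6 to 61.03 CPM and BBC3 at 5.06 to 10.1 CPM, and neither was called between the ventilated groups. The median log2 change of this list was 1.31 for surfactant minus unventilated and 0.0028 for budesonide minus surfactant.

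Stress of the endoplasmic reticulum, where secreted proteins fold, was represented by 29 genes, of which 17 were called higher and 0 lower (median log2 1.17). ERN1, the sensor IRE1, was at 121, 87.8, 125 and 102 CPM in unventilated and 750.3, 824, 697 and 836 CPM in budesonide livers. ERN1 rose, with a log2 change of 2.83 ± 0.17 and an edgeR adjusted p of 7.85e-07. XBP1, the transcription factor whose message IRE1 splices, was at 225 to 331 CPM unventilated and 779 to 1042 CPM with budesonide (log2 1.83 ± 0.24, edgeR adjusted p = 9e-05), and EIF2AK3, the sensor PERK, at 21.6 to 27.4 CPM unventilated and 58.1 to 95.3 CPM with budesonide (log2 1.57 ± 0.20, edgeR adjusted p = 5.92e-05). CHAC1, which degrades glutathione and is induced by the same pathway, was at 0.145, 0.365, 0.588 and 0.268 CPM in unventilated and 3.67, 3.04, 3.26 and 3.15 CPM in budesonide livers. CHAC1 rose, with a log2 change of 3.27 ± 0.41 and an edgeR adjusted p of 5.89e-05. Budesonide and unventilated ranges were separate for all 4 genes, which were chosen for small adjusted p, where 48.8% of all genes did not overlap. With age as a covariate 8 of the list were called higher and 0 lower. With surfactant ERN1 was at 763 to 1007 CPM, XBP1 at 633 to 1462 CPM, EIF2AK3 at 50.9 to 80.99 CPM and CHAC1 at 1.14 to 2.95 CPM. The list's median log2 change was 1.07 for surfactant minus unventilated and 0.13 for budesonide minus surfactant.

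Among lipid synthesis genes more members were called lower than higher. In sterol biosynthesis and uptake 17 of 24 members were called lower and 1 higher (median log2 -1.33). DHCR7, the last step of cholesterol synthesis, was at 39.8, 35.5, 35.3 and 45.8 CPM in unventilated and 4.19, 3.73, 3.78 and 5.59 CPM in budesonide livers. DHCR7 fell, with a log2 change of -3.18 ± 0.29 and an edgeR adjusted p of 8.36e-06. NSDHL, an earlier demethylation step, was at 59.8, 45.4, 47.5 and 41.5 CPM in unventilated and 11.9, 12.5, 10.997 and 10.3 CPM in budesonide livers (log2 -2.09 ± 0.17, edgeR adjusted p = 5.03e-06), and ACAT2, which makes the acetoacetyl-CoA that starts the pathway, at 103, 71.3, 97.7 and 82.9 CPM in unventilated and 17.8, 8.60, 17.5 and 10.2 CPM in budesonide livers. ACAT2 fell, with a log2 change of -2.71 ± 0.26 and an edgeR adjusted p of 1.12e-05. Budesonide livers were lower than every unventilated liver for each. PMVK, a kinase of the mevalonate pathway that was singled out after its values were seen, was the 1 member called higher, at 14.1, 13.9, 19.9 and 15.3 CPM in unventilated and 92.1, 110.3, 84.1 and 67.1 CPM in budesonide livers. PMVK rose, with a log2 change of 2.49 ± 0.27 and an edgeR adjusted p of 2.17e-05. IDI1, an isomerase of that pathway, was not called, at 119 to 215 CPM unventilated and 107 to 169.8 CPM with budesonide (log2 -0.18 ± 0.22, edgeR adjusted p = 0.53).

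In fatty acid and triglyceride synthesis 13 of 24 members were called lower and 5 higher (median log2 -0.82). DGAT2, which completes triglycerides, was at 148, 115, 130.2 and 131 CPM in unventilated and 8.32, 3.90, 7.10 and 6.11 CPM in budesonide livers (log2 -4.36 ± 0.37, edgeR adjusted p = 5.95e-06), and GPAM, which begins them, at 139, 115, 199.8 and 182 CPM in unventilated and 12.5, 6.82, 10.1 and 7.52 CPM in budesonide livers. GPAM fell, with a log2 change of -4.11 ± 0.44 and an edgeR adjusted p of 2.43e-05. LPIN2, a phosphatidate phosphatase, rose and was at 60.02 to 70.7 CPM unventilated and 143 to 200.3 CPM with budesonide (log2 1.44 ± 0.15, edgeR adjusted p = 1.91e-05). SOAT2, which esterifies cholesterol and was outside both lists, was at 171, 149, 123 and 111 CPM in unventilated and 7.33, 2.58, 6.98 and 3.22 CPM in budesonide livers. SOAT2 fell, with a log2 change of -4.78 ± 0.71 and an edgeR adjusted p of 0.0002. Surfactant livers held 87.1, 36.2, 33.2 and 4.12 CPM of SOAT2, where animal 051 lay inside the budesonide range and the others above (log2 -2.99 ± 0.66, edgeR adjusted p = 0.0144).

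Genes of bile acid and drug metabolism were mostly called lower: 21 of 25 were called lower and 1 higher, with a median log2 change of -1.93. NR1I2, the nuclear receptor PXR that senses foreign compounds and steroids, was at 71.97, 77.8, 64.7 and 72.4 CPM in unventilated and 1.40, 1.49, 2.68 and 1.29 CPM in budesonide livers. NR1I2 fell, with a log2 change of -5.38 ± 0.51 and an edgeR adjusted p of 1.13e-05. This was a 41.9-fold fall in mean CPM, with surfactant livers at 11.95, 5.76, 8.50 and 1.54 CPM. NR0B2, the repressor SHP that bile acids induce, was at 5.15, 4.75, 9.35 and 9.60 CPM in unventilated and 0.233, 0.229, 0 and 0.129 CPM in budesonide livers. NR0B2 fell, with a log2 change of -5.54 ± 0.86 and an edgeR adjusted p of 0.00026. ABCG5, part of the sterol exporter of the bile canaliculus, was at 16.04, 13.2, 22.8 and 14.7 CPM in unventilated and 4.72, 4.24, 4.25 and 4.31 CPM in budesonide livers (log2 -1.93 ± 0.19, edgeR adjusted p = 1.43e-05), below its surfactant levels of 6.60 to 8.77 CPM (log2 -0.83 ± 0.19, edgeR adjusted p = 0.0168). ALDH1A1, a retinal dehydrogenase, was at 108 to 159 CPM unventilated and 29.5 to 41.5 CPM with budesonide (log2 -1.87 ± 0.18, edgeR adjusted p = 1.07e-05). POR, the electron donor of the cytochrome P450 enzymes, was the 1 member called higher and was singled out after its values were seen. It was at 127, 79.7, 113 and 91.1 CPM in unventilated and 342, 290.0, 269 and 222 CPM in budesonide livers. POR rose, with a log2 change of 1.45 ± 0.18 and an edgeR adjusted p of 4.67e-05. Age as a covariate left 17 called lower and 1 higher.

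Hepatocyte identity factors and fetal liver genes were called lower for 11 of 21 members and higher for 4 (median log2 -0.97). Over all genes 23.7% were called lower and 23.3% higher. ONECUT1, a transcription factor of liver and bile duct development, was at 128, 109, 134 and 122 CPM in unventilated and 27.1, 14.7, 22.6 and 19.4 CPM in budesonide livers. ONECUT1 fell, with a log2 change of -2.56 ± 0.31 and an edgeR adjusted p of 5.52e-05. SALL4, a transcription factor of embryonic stem cells and fetal liver, was at 14.8 to 22.7 CPM unventilated and 3.78 to 4.41 CPM with budesonide (log2 -2.06 ± 0.26, edgeR adjusted p = 6.71e-05). AFP, alpha-fetoprotein, the plasma protein of fetal life, was at 2956, 2050.2, 501 and 1994 CPM in unventilated and 1564, 332, 1304 and 622 CPM in budesonide livers and was not called (log2 -0.97 ± 0.56, edgeR adjusted p = 0.17); animal 059 of the unventilated group lay inside the budesonide range. GPC3, a glypican of fetal liver, was at 2209 to 2460.3 CPM unventilated and 1813 to 2521 CPM with budesonide and was not called (log2 -0.08 ± 0.15, edgeR adjusted p = 0.68). With age as a covariate 4 members were called lower and 2 higher.

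Of 23 genes of the insulin-like growth factor axis 7 were called higher and 4 lower (median log2 0.23), where 23.3% of all genes were called higher and 23.7% lower. IGFBP1, the stress-responsive binding protein that holds back insulin-like growth factors, was at 365, 349, 318 and 301 CPM in unventilated and 5629, 4654, 5756 and 3186 CPM in budesonide livers. IGFBP1 rose, with a log2 change of 3.85 ± 0.22 and an edgeR adjusted p of 7.85e-07. IGF1 itself was at 131, 78.97, 125 and 105 CPM in unventilated and 66.7, 42.5, 30.4 and 26.8 CPM in budesonide livers (log2 -1.40 ± 0.30, edgeR adjusted p = 0.00221), and IGFALS, which holds IGF in plasma complexes, at 119.9, 59.9, 79.4 and 79.4 CPM in unventilated and 7.04, 3.61, 4.77 and 4.31 CPM in budesonide livers. IGFALS fell, with a log2 change of -4.10 ± 0.32 and an edgeR adjusted p of 3.53e-06. IGFALS was also lower than with surfactant, which gave 7.77 to 17.2 CPM (log2 -1.46 ± 0.29, edgeR adjusted p = 0.00949). IGFBP2, the fetal binding protein, was at 739 to 1114 CPM unventilated and 733 to 1042 CPM with budesonide and was not called (log2 -0.04 ± 0.19, edgeR adjusted p = 0.89).

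Thyroid hormone handling had 3 of 12 members called higher and 6 lower (median log2 -0.49), where 23.3% of all genes were called higher and 23.7% lower. DIO3, which inactivates thyroid hormone, was at 0.434, 0.137, 0.235 and 0.134 CPM in unventilated and 25.96, 15.3, 9.83 and 16.7 CPM in budesonide livers. DIO3 rose, with a log2 change of 6.15 ± 0.62 and an edgeR adjusted p of 1.65e-05. Surfactant livers held 0.612, 4.38, 3.998 and 3.14 CPM, below all budesonide livers (log2 2.48 ± 0.48, edgeR adjusted p = 0.0086). THRB, the liver thyroid hormone receptor, was at 14.5, 12.9, 17.9 and 13.3 CPM in unventilated and 4.60, 3.78, 3.90 and 3.22 CPM in budesonide livers. THRB fell, with a log2 change of -1.91 ± 0.27 and an edgeR adjusted p of 0.000136. KLF9, which thyroid hormone and glucocorticoids both induce, was at 36.1, 14.4, 29.7 and 20.05 CPM in unventilated and 165, 113, 204 and 119 CPM in budesonide livers. KLF9 rose, with a log2 change of 2.59 ± 0.32 and an edgeR adjusted p of 5.68e-05. With age as a covariate 2 members were called higher and 2 lower.

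Among circadian clock genes 7 of 19 were called higher and 6 lower (median log2 0.13), but leaving out 1 library reduced the higher calls to 2 without unventilated animal 058 or 060 and to 4 without unventilated animal 057 or 059 or budesonide animal 031, 048 or 050. NFIL3, a repressor of clock-controlled genes, was at 18.6, 17.1, 26.8 and 17.01 CPM in unventilated and 148, 285, 173 and 264 CPM in budesonide livers. NFIL3 rose, with a log2 change of 3.45 ± 0.46 and an edgeR adjusted p of 9.65e-05. TEF, an activator at the same sites, was at 89.1, 78.8, 117 and 93.01 CPM in unventilated and 22.6, 22.5, 33.98 and 21.9 CPM in budesonide livers. TEF fell, with a log2 change of -1.90 ± 0.25 and an edgeR adjusted p of 7.61e-05. These 2 genes moved in opposite directions, each with separate ranges.

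Complement and coagulation genes were called higher for 7 of 38 and lower for 14 (median log2 -0.26), or 2 and 3 with age as a covariate. The latter counts stand beside 1499 higher and 1459 lower of all 16824 genes tested in that fit. C7, a component of the membrane attack complex, was at 22.2 to 31.05 CPM unventilated and 90.4 to 118 CPM with budesonide (log2 2.02 ± 0.19, edgeR adjusted p = 1.13e-05). F11, clotting factor XI, was at 33.1 to 85.9 CPM unventilated and 10.2 to 17.6 CPM with budesonide (log2 -2.09 ± 0.28, edgeR adjusted p = 9.47e-05). PLAU, the plasminogen activator urokinase, was at 10.3, 9.77, 9.41 and 8.84 CPM in unventilated and 3.20, 3.15, 3.84 and 2.89 CPM in budesonide livers (log2 -1.55 ± 0.17, edgeR adjusted p = 2.53e-05) and was also lower than in the surfactant livers, at 6.18 to 8.23 CPM (log2 -1.10 ± 0.17, edgeR adjusted p = 0.00262).

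Mitochondrial respiration genes were called lower for 15 of 34 members and higher for 1 (median log2 -0.29), or 2 lower and 0 higher with age as a covariate. That fit also called fewer of all 16824 genes tested, 1459 lower and 1499 higher. The median log2 change of the list was -0.22 in it. Why the list lost most of its lower calls was not tested. SDHC, a subunit of complex II, was at 187, 173, 232 and 163 CPM in unventilated and 62.3, 58.4, 60.7 and 67.7 CPM in budesonide livers. SDHC fell, with a log2 change of -1.60 ± 0.15 and an edgeR adjusted p of 9.42e-06. NDUFS1, a subunit of complex I, was at 45.5 to 55.2 CPM unventilated and 19.5 to 26.2 CPM with budesonide (log2 -1.17 ± 0.16, edgeR adjusted p = 9.02e-05). Antioxidant and NRF2 target genes were called lower for 11 of 30 and higher for 5 (median log2 -0.16), beside 23.7% and 23.3% of all genes. CAT, catalase, which breaks down hydrogen peroxide, was at 543, 455, 829.7 and 523 CPM in unventilated and 85.2, 97.2, 139.9 and 103 CPM in budesonide livers. CAT fell, with a log2 change of -2.47 ± 0.26 and an edgeR adjusted p of 2.17e-05. TXNRD1, thioredoxin reductase, went up and was at 33.7 to 42.4 CPM unventilated and 141 to 173 CPM with budesonide (log2 2.08 ± 0.25, edgeR adjusted p = 4.1e-05). The lower calls of this list numbered 7 without unventilated animal 059 and 6 without budesonide animal 048, and with age as a covariate 4 were called higher and 2 lower.

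Protein synthesis and turnover genes were called higher more often than lower. Of 60 cytosolic ribosomal protein genes 45 were called higher and 0 lower (median log2 0.64), 29 higher without unventilated animal 060 and 15 with age as a covariate. RPL12, a large subunit protein, was at 1.42 to 2.23 CPM unventilated and 5.004 to 9.84 CPM with budesonide (log2 2.15 ± 0.30, edgeR adjusted p = 0.000118), and RPL10 at 16.99 to 20.5 CPM unventilated and 29.8 to 47.8 CPM with budesonide (log2 1.12 ± 0.18, edgeR adjusted p = 0.00032). With surfactant RPL12 was at 5.40 to 11.9 CPM and RPL10 at 30.97 to 45.2 CPM, overlapping the budesonide ranges. The list's median log2 change was 0.67 for surfactant minus unventilated and -0.0034 for budesonide minus surfactant. Many ribosomal protein genes have near-identical pseudogenes, so reads could be split between copies and these levels are uncertain. Of 31 proteasome subunits 12 were called higher and 1 lower (median log2 0.24), 7 higher without unventilated animal 057 or 060 and 1 with age as a covariate. PSMD7, a lid subunit, was at 45.7, 52.7, 50.04 and 40.4 CPM in unventilated and 84.6, 87.1, 88.9 and 87.8 CPM in budesonide livers. PSMD7 rose, with a log2 change of 0.88 ± 0.13 and an edgeR adjusted p of 0.000196. Of 29 autophagy and lysosome genes 11 were called higher and 2 lower (median log2 0.24), 4 lower without surfactant animal 007, 049 or 051, with CTSB, the lysosomal protease cathepsin B, at 236, 195, 185 and 176 CPM in unventilated and 539, 729, 646 and 857 CPM in budesonide livers (log2 1.81 ± 0.19, edgeR adjusted p = 1.85e-05) and ATG2A, a lipid transfer protein of the growing autophagosome, at 45.3 to 54.8 CPM unventilated and 135 to 210.1 CPM with budesonide (log2 1.94 ± 0.19, edgeR adjusted p = 1.13e-05).

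Hypoxia and glycolysis genes were called higher for 14 of 32 members and lower for 3 (median log2 0.58). PFKFB4, a regulator of glycolytic flux, was at 7.47, 11.4, 6.41 and 6.30 CPM in unventilated and 45.8, 38.1, 23.7 and 30.5 CPM in budesonide livers (log2 2.13 ± 0.25, edgeR adjusted p = 3.99e-05), above all surfactant livers at 10.4 to 15.8 CPM (log2 1.45 ± 0.24, edgeR adjusted p = 0.0044). CA9, a carbonic anhydrase and classical hypoxia target, was lower, at 25.8, 16.2, 19.1 and 14.2 CPM in unventilated and 2.74, 1.49, 3.96 and 2.70 CPM in budesonide livers. CA9 fell, with a log2 change of -2.79 ± 0.32 and an edgeR adjusted p of 3.74e-05. The lower calls numbered 1 without unventilated animal 057 or 059 or budesonide animal 031 or 048. The higher calls numbered 9 without unventilated animal 057 or budesonide animal 050, and 4 with age as a covariate. Heat shock and cold-inducible genes had 5 of 19 members called higher and 0 lower (median log2 0.52), 3 higher when any 1 of unventilated animals 057, 058 and 060 or budesonide animals 048 and 050 was left out, and 1 with age as a covariate. Iron handling genes had 7 of 22 called higher and 5 lower (median log2 -0.18), 3 lower without unventilated animal 060 or budesonide animal 048. The counts of the heat shock and iron lists stand beside 23.3% of all genes called higher and 23.7% lower. HFE2, hemojuvelin, the coreceptor that drives hepcidin, was at 49.7, 49.7, 85.7 and 45.1 CPM in unventilated and 7.86, 5.45, 7.10 and 8.04 CPM in budesonide livers (log2 -3.02 ± 0.34, edgeR adjusted p = 3.31e-05), so that it fell while HAMP was called higher.

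Cell cycle genes showed few calls, 3 of 38 higher and 2 lower (median log2 0.39). Without unventilated animal 058, 5 were called higher, and without unventilated animal 057 or 058 or budesonide animal 031 or 048, 1 lower. MKI67, the proliferation marker Ki-67, was at 329, 619, 107 and 336 CPM in unventilated and 333, 608, 375 and 489 CPM in budesonide livers, with animal 059 lowest, and was not called (log2 0.37 ± 0.45, edgeR adjusted p = 0.52). CCND1, cyclin D1, was at 80.7, 61.5, 201 and 88.9 CPM in unventilated and 30.6, 14.8, 30.4 and 21.2 CPM in budesonide livers. CCND1 fell, with a log2 change of -2.15 ± 0.40 and an edgeR adjusted p of 0.000849. The CCND1 call was lost with age as a covariate (log2 -1.54, edgeR adjusted p = 0.11) and between animals of 127 days (log2 -1.75, edgeR adjusted p = 0.0905).

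Cell type markers were read as summed levels and as calls. Summed over 16 genes, hepatocyte markers were at 217969 to 284191 CPM unventilated and 206902 to 270326 CPM with budesonide, with 2 called higher and 4 lower, the higher ones being FGB and FGG, and 7 lower without budesonide animal 050. Erythroid markers, over 19 genes, were at 796 to 4504 and 2703 to 6562 CPM, with 1 called higher, 3 without unventilated animal 058 or budesonide animal 050 and 2 without budesonide animal 031. The unventilated sum was lowest in animal 059, where SLC4A1, the red cell anion exchanger, was at 88.9 CPM among 369.8, 705, 88.9 and 399 CPM, against 457, 760.2, 429 and 878 CPM with budesonide (log2 0.69 ± 0.48, edgeR adjusted p = 0.26). Neutrophil markers, over 14 genes, were at 48.7 to 123 and 96.4 to 154 CPM. Of the 13 tested, 4 were called higher, and 2 when any 1 of unventilated animals 057, 059 and 060 or budesonide animals 048 and 054 was left out. CXCR2, the neutrophil receptor for CXCL8, was at 1.54, 1.73, 0.9996 and 1.34 CPM in unventilated and 8.85, 6.76, 8.15 and 5.72 CPM in budesonide livers (log2 2.38 ± 0.42, edgeR adjusted p = 0.000595), a call lost with age as a covariate (log2 1.68, edgeR adjusted p = 0.0582) and between animals of 127 days (log2 1.80, edgeR adjusted p = 0.0847). Whether the neutrophil levels have a part in the inflammatory genes was not tested.

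Macrophage and Kupffer cell markers had 3 of 19 called higher and 7 lower (median log2 -0.27). CLEC4F, a Kupffer cell lectin, was at 87.6, 104, 86.8 and 71.8 CPM in unventilated and 13.97, 25.8, 20.7 and 29.6 CPM in budesonide livers (log2 -1.96 ± 0.25, edgeR adjusted p = 7.14e-05), below all surfactant livers at 35.04 to 66.99 CPM (log2 -1.08 ± 0.25, edgeR adjusted p = 0.016). TIMD4, a receptor of resident Kupffer cells for dying cells, was at 43.7, 53.4, 44.3 and 33.1 CPM in unventilated and 14.7, 15.1, 14.6 and 23.7 CPM in budesonide livers. TIMD4 fell, with a log2 change of -1.36 ± 0.25 and an edgeR adjusted p of 0.00074. ADGRE1, the macrophage surface protein F4/80, went up and was at 21.8 to 41.1 CPM unventilated and 112 to 133 CPM with budesonide (log2 1.98 ± 0.23, edgeR adjusted p = 4.1e-05), and C1QC, a complement chain made by macrophages, was not called at 186 to 239 CPM unventilated and 164 to 318 CPM with budesonide (log2 0.09 ± 0.20, edgeR adjusted p = 0.75). The members of this list thus did not move together.

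Endothelial markers had 5 of 22 called higher and 6 lower (median log2 -0.01), near the shares over all genes tested (23.3% and 23.7%). Their sums were 828 to 1044 CPM unventilated and 1168 to 1363 CPM with budesonide. KDR, the receptor for vascular endothelial growth factor, was at 98.6, 76.3, 103 and 90.2 CPM in unventilated and 39.8, 36.8, 38.2 and 26.1 CPM in budesonide livers (log2 -1.39 ± 0.16, edgeR adjusted p = 4.15e-05), below the surfactant livers at 61.5 to 81.9 CPM (log2 -1.03 ± 0.16, edgeR adjusted p = 0.00299). PLVAP, which forms the diaphragms of endothelial pores, was at 75.2, 59.2, 64.2 and 54.2 CPM in unventilated and 140.3, 193, 152 and 159 CPM in budesonide livers (log2 1.35 ± 0.22, edgeR adjusted p = 0.000331), above the surfactant livers at 43.3 to 95.1 CPM (log2 1.21 ± 0.22, edgeR adjusted p = 0.0056). LYVE1, a hyaluronan receptor of sinusoidal endothelium, was at 73.9 to 126 CPM unventilated and 302 to 493 CPM with budesonide (log2 2.08 ± 0.22, edgeR adjusted p = 2.36e-05), and STAB2, a scavenger receptor of the same cells, was not called at 131 to 207 CPM unventilated and 134 to 185 CPM with budesonide (log2 0.02 ± 0.20, edgeR adjusted p = 0.94). Leaving out unventilated animal 058 or 060 or budesonide animal 048 or 054 reduced the higher calls of this list to 3. With age as a covariate 2 were called higher and 1 lower, where 1499 of all 16824 genes were called higher and 1459 lower.

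Stellate cell and fibroblast markers had 9 of 21 called higher and 0 lower (median log2 0.37), 4 higher without unventilated animal 057 or 058 or budesonide animal 054, 5 higher without animal 060 or 031, and 3 with age as a covariate. PDGFRA, a growth factor receptor of these cells, was at 32.2, 33.05, 55.2 and 39.3 CPM in unventilated and 114, 91.4, 149.9 and 183 CPM in budesonide livers. PDGFRA rose, with a log2 change of 1.75 ± 0.26 and an edgeR adjusted p of 0.000165. Bile duct markers had 2 of 13 called higher and 4 lower (median log2 -0.18). SPP1, osteopontin, was at 2.94, 2.78, 2.59 and 1.92 CPM in unventilated and 203, 451, 146 and 726 CPM in budesonide livers (log2 7.22 ± 1.01, edgeR adjusted p = 0.000127). With surfactant SPP1 was at 42.5, 529, 1296 and 1799 CPM, a range that holds all budesonide livers, and it was not called between the ventilated groups. CLDN4, a tight junction protein, was at 144, 124, 174 and 139.6 CPM in unventilated and 17.4, 19.4, 17.8 and 19.5 CPM in budesonide livers (log2 -2.97 ± 0.26, edgeR adjusted p = 7.21e-06), with 25.1 to 63.3 CPM in the surfactant livers (log2 -1.25 ± 0.25, edgeR adjusted p = 0.00894). Lymphocyte markers had 1 of 13 called higher and 1 lower. CD79B, a chain of the B cell receptor, was at 0.193, 0.274, 0.235 and 0.536 CPM in unventilated and 8.21, 3.90, 3.96 and 2.51 CPM in budesonide livers (log2 3.86 ± 0.50, edgeR adjusted p = 7.42e-05), while LCK, a T cell kinase, was at 3.76, 3.51, 3.88 and 3.30 CPM in unventilated and 2.15, 0.745, 1.11 and 2.44 CPM in budesonide livers (log2 -1.17 ± 0.32, edgeR adjusted p = 0.00934), a call lost with age as a covariate (log2 -0.94, edgeR adjusted p = 0.18) and between animals of 127 days (log2 -0.57, edgeR adjusted p = 0.47).

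Beyond the lists, the steepest rises were of genes nearly silent in the unventilated liver. SLCO4A1, an organic anion transporter that carries thyroid hormone, was at 0.723, 0.867, 0.0588 and 0.357 CPM in unventilated and 847, 722, 282 and 689 CPM in budesonide livers. SLCO4A1 rose, with a log2 change of 10.25 ± 0.79 and an edgeR adjusted p of 3.69e-06. PTX3, a soluble pattern recognition protein, was at 0.674, 0.730, 0.941 and 0.670 CPM in unventilated and 230.5, 367, 217 and 251 CPM in budesonide livers. PTX3 rose, with a log2 change of 8.46 ± 0.95 and an edgeR adjusted p of 3.33e-05. SH2D4B, which encodes an adaptor protein with an SH2 domain, was at 0, 0, 0.118 and 0.0893 CPM in unventilated and 70.2, 33.1, 45.6 and 54.98 CPM in budesonide livers. SH2D4B rose, with a log2 change of 9.84 ± 0.84 and an edgeR adjusted p of 5.99e-06. The surfactant ranges overlapped those with budesonide in these 3 genes, at 152 to 929 CPM for SLCO4A1, 45.5 to 949 CPM for PTX3 and 22.8 to 129.8 CPM for SH2D4B, and none was called between the ventilated groups.

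ATP6V1C2, a subunit of the proton pump V-ATPase, was at 0.193, 0.320, 0.529 and 0.268 CPM in unventilated and 153, 150.0, 106 and 155 CPM in budesonide livers. ATP6V1C2 rose, with a log2 change of 8.75 ± 0.63 and an edgeR adjusted p of 2.63e-06. MRAP, an accessory protein of the receptor for adrenocorticotropic hormone, had no counts in the unventilated livers and was at 4.25, 3.04, 3.43 and 5.40 CPM with budesonide, at least 110.3-fold higher with the same floor (edgeR adjusted p = 0.000255). SCNN1G, the gamma subunit of the epithelial sodium channel, also had no counts in the unventilated livers and was at 66.1, 37.7, 6.63 and 7.78 CPM with budesonide, at least 808-fold higher with that floor (edgeR adjusted p = 0.00414). The budesonide livers differed widely in SCNN1G, with animals 050 and 054 low and 031 and 048 high. Its call was lost with age as a covariate (edgeR adjusted p = 0.0824) and between animals of 127 days (edgeR adjusted p = 0.0673).

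Among the steepest falls, NIM1K, a kinase related to AMPK, was at 18.3, 10.96, 17.1 and 13.2 CPM in unventilated and 0.291, 0.287, 0.0582 and 0.386 CPM in budesonide livers (log2 -5.84 ± 0.39, edgeR adjusted p = 1.63e-06), below all surfactant livers at 1.23 to 2.44 CPM (log2 -2.81 ± 0.39, edgeR adjusted p = 0.00168). SEC16B, which organises the sites where secreted proteins leave the endoplasmic reticulum, was at 80.4, 54.9, 80.03 and 73.3 CPM in unventilated and 0.990, 1.83, 2.56 and 1.22 CPM in budesonide livers. SEC16B fell, with a log2 change of -5.44 ± 0.65 and an edgeR adjusted p of 4.67e-05. IHH, a hedgehog ligand, was at 14.9, 14.7, 14.5 and 23.98 CPM in unventilated and 0.757, 0.0573, 0.465 and 0.193 CPM in budesonide livers (log2 -5.50 ± 0.77, edgeR adjusted p = 0.000127), and FOXJ1, the master factor of motile cilia, at 24.7, 3.10, 44.4 and 12.8 CPM in unventilated and 0.407, 0.516, 0.291 and 0.514 CPM in budesonide livers. FOXJ1 fell, with a log2 change of -5.60 ± 0.94 and an edgeR adjusted p of 0.000447. SSTR5, a somatostatin receptor, was at 21.9, 11.8, 9.41 and 8.04 CPM in unventilated and 0.291, 0.172, 0.407 and 0.514 CPM in budesonide livers. SSTR5 fell, with a log2 change of -5.19 ± 0.52 and an edgeR adjusted p of 1.43e-05. These genes were chosen for large falls with separate ranges, so the separation is a description.

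Some genes were chosen because they were called in the same direction against both other groups, and their differences are a description. WIPF3, a regulator of the actin cytoskeleton, was at 2.26, 2.65, 2.12 and 2.46 CPM in unventilated and 77.9, 81.1, 99.5 and 79.4 CPM in budesonide livers. WIPF3 rose, with a log2 change of 5.15 ± 0.17 and an edgeR adjusted p of 4.26e-09. The surfactant livers lay at 5.89, 4.38, 5.55 and 5.97 CPM, and this gene had the smallest adjusted p named here for both differences (log2 3.95 ± 0.16, edgeR adjusted p = 5.34e-08 against surfactant). SLC7A8, an exchanger of neutral amino acids, was at 1.01, 0.548, 1.76 and 1.12 CPM in unventilated and 34.9, 41.7, 57.3 and 53.5 CPM in budesonide livers (log2 5.41 ± 0.39, edgeR adjusted p = 2.63e-06), with 4.34, 1.68, 2.61 and 4.58 CPM with surfactant (log2 3.82 ± 0.36, edgeR adjusted p = 0.000311). FABP4, a fatty acid carrier of adipocytes, macrophages and endothelium, was at 0, 0.0913, 0 and 0.0447 CPM in unventilated and 4.60, 2.24, 3.14 and 4.57 CPM in budesonide livers (log2 6.40 ± 0.87, edgeR adjusted p = 0.000104), with 0.445, 0, 0 and 0.257 CPM with surfactant (log2 4.29 ± 0.72, edgeR adjusted p = 0.00436). OSR2, a zinc finger factor of development, was at 0.193, 0.0456, 0.412 and 0.179 CPM in unventilated and 10.4, 4.59, 7.04 and 1.54 CPM in budesonide livers (log2 4.84 ± 0.67, edgeR adjusted p = 0.000118), with 0.222, 0.0600, 0.222 and 0.412 CPM with surfactant (log2 4.62 ± 0.66, edgeR adjusted p = 0.00179).

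GHRHR, the receptor for growth hormone releasing hormone, was at 0.385, 0.411, 0.118 and 0.714 CPM in unventilated and 12.8, 5.33, 3.26 and 1.03 CPM in budesonide livers (log2 3.73 ± 0.74, edgeR adjusted p = 0.00135), and at 0.222, 0.120, 0 and 0.206 CPM with surfactant (log2 5.28 ± 0.85, edgeR adjusted p = 0.00351). Animal 054 was lowest of the budesonide livers, and the call against unventilated was lost between animals of 127 days (log2 1.35, edgeR adjusted p = 0.40) and with age as a covariate (log2 2.63, edgeR adjusted p = 0.21). Below both groups were HAO2, a peroxisomal hydroxyacid oxidase, and ANPEP, aminopeptidase N. HAO2 was at 14.6, 20.5, 18.3 and 35.9 CPM in unventilated and 0.233, 0.115, 2.56 and 1.09 CPM in budesonide livers (log2 -4.48 ± 0.77, edgeR adjusted p = 0.000559), and at 8.34, 2.76, 20.4 and 12.8 CPM with surfactant (log2 -3.46 ± 0.75, edgeR adjusted p = 0.0135). ANPEP was at 61.7, 74.5, 22.99 and 70.4 CPM in unventilated and 4.72, 5.85, 5.94 and 5.79 CPM in budesonide livers (log2 -3.36 ± 0.65, edgeR adjusted p = 0.00119), and at 20.96, 153, 107 and 17.8 CPM with surfactant (log2 -3.74 ± 0.66, edgeR adjusted p = 0.00541). HAO2 (log2 -4.00, edgeR adjusted p = 0.0942) and ANPEP (log2 -3.55, edgeR adjusted p = 0.052) were not called between animals of 127 days.

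Other genes were chosen because their budesonide levels lay between the unventilated and surfactant levels. RGS4, which shortens G protein signalling, was at 0.0963, 0.228, 0.412 and 0.0893 CPM in unventilated and 4.19, 9.92, 3.20 and 12.5 CPM in budesonide livers (log2 5.19 ± 0.83, edgeR adjusted p = 0.000318), and at 14.2, 102, 133 and 57.1 CPM with surfactant, higher than any budesonide liver (log2 -3.36 ± 0.62, edgeR adjusted p = 0.00675). ADAMTS4, a protease of the extracellular matrix, was at 1.16, 2.01, 1.29 and 1.12 CPM in unventilated and 26.95, 48.04, 19.4 and 76.1 CPM in budesonide livers (log2 4.92 ± 0.96, edgeR adjusted p = 0.00129), and at 30.1, 179, 1177 and 1104 CPM with surfactant, where animal 007 lay inside the budesonide range and animals 049 and 051 far above it. NUDT7, a peroxisomal coenzyme A hydrolase, was at 11.6, 8.90, 14.1 and 7.99 CPM in unventilated and 4.13, 3.33, 4.13 and 3.86 CPM in budesonide livers (log2 -1.46 ± 0.31, edgeR adjusted p = 0.00228), and at 1.72, 0.900, 0.666 and 0.463 CPM with surfactant, lower than any budesonide liver (log2 2.04 ± 0.35, edgeR adjusted p = 0.00448). RNF14, a ubiquitin ligase that binds the androgen receptor, was at 51.8, 42.4, 53.1 and 52.5 CPM in unventilated and 28.6, 31.4, 28.5 and 38.1 CPM in budesonide livers (log2 -0.66 ± 0.14, edgeR adjusted p = 0.00189), and at 20.7, 19.9, 19.3 and 22.1 CPM with surfactant (log2 0.62 ± 0.14, edgeR adjusted p = 0.0141). The calls of NUDT7 and RNF14 against unventilated were lost with age as a covariate (log2 -0.95, edgeR adjusted p = 0.17 for NUDT7 and log2 -0.43, edgeR adjusted p = 0.14 for RNF14) and between animals of 127 days (log2 -1.41, edgeR adjusted p = 0.0504 for NUDT7 and log2 -0.31, edgeR adjusted p = 0.34 for RNF14).

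Gestational age differed by at most 2 days between the groups and moved with ventilation, so the named genes were also compared at 127 days, where budesonide animal 054 and unventilated animals 057 and 058 were all males. FKBP5 (log2 3.68, edgeR adjusted p = 0.00228), PDK4 (log2 7.29, edgeR adjusted p = 0.000141), WIPF3 (log2 5.01, edgeR adjusted p = 5.55e-05), MX1 (log2 -3.69, edgeR adjusted p = 0.00729) and NR1I2 (log2 -5.86, edgeR adjusted p = 0.00357) were called in that comparison as well. The single budesonide animal is assumed there to vary like the other groups. G6PC changed by less in that comparison (log2 2.67, edgeR adjusted p = 0.0133) than over the whole groups, animal 054 having the lowest G6PC of its group.

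**Figure D5:**
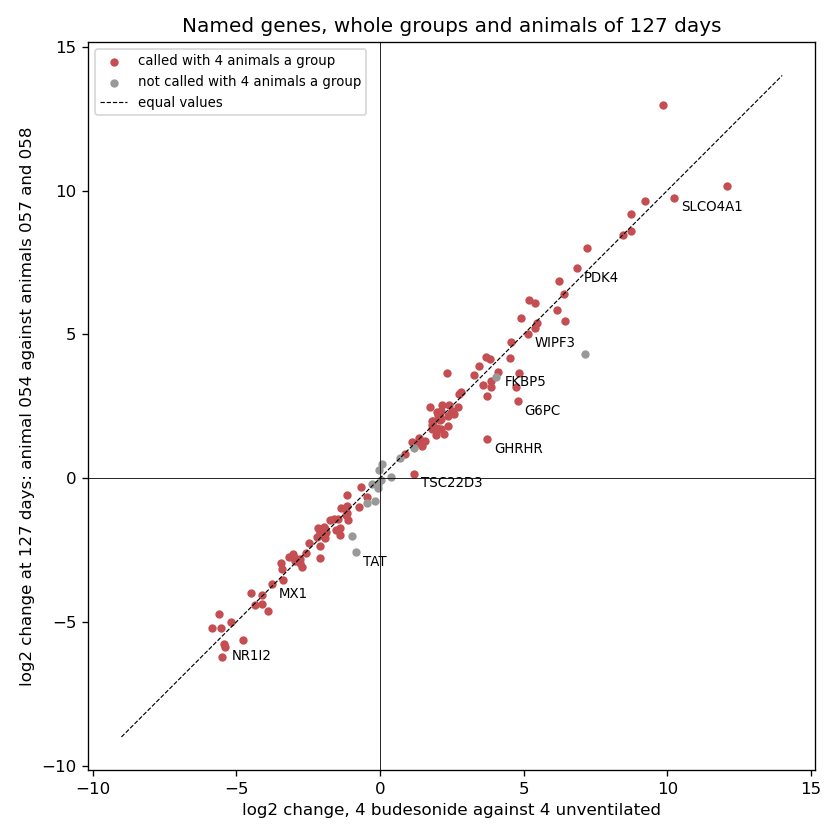
Each point is 1 named gene, by its log2 change over 4 budesonide and 4 unventilated animals (horizontal) and between animals of 127 days, 054 against 057 and 058 (vertical); the dashed line marks equal values. Every gene called over the whole groups kept its sign, with TSC22D3 and GHRHR among those nearer to 0, and TAT, grey, was called lower at 127 days.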

How the data were processed

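Gene counts of 12 liver libraries were used as the authors deposited them, whole numbers per gene and not normalized. The labels' protocols give Trizol extraction of total RNA and polyA selection. Per the submitters' processing notes reads were aligned with Bowtie2, counted with featureCounts and analysed with edgeR. Their versions and settings, the strandedness and the build are not given in the sources used here, so antisense and overlapping genes cannot be separated. Groups, ages and sexes came from the labels, and replicates are separate animals. The white matter libraries were not used here.

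The table held 27716 entries, of which 508 locus identifiers were named through the RefSeq gene table supplied. Dates stood in place of 23 symbols and were kept as given. Sequences are not shown, since no sequence table came with these data.

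The software was edgeR 4.0.16 and DESeq2 1.42.0, run in R 4.3.3 with limma 3.58.1. Genes kept by filterByExpr (16824) were scaled by edgeR's trimmed mean (TMM) and entered 1 robust quasi-likelihood model of 3 groups. The common biological coefficient of variation was 0.304. Each SE is the size of the log2 change over the root of its quasi-likelihood F statistic. Folds against groups with no counts used a floor of 3 counts over the group, which covers counting error only. The procedure was also run on simulated counts, in which far fewer genes differed than were called here. That run therefore does not show how the procedure performs in these data.

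The comparison, the 36 gene lists (977 distinct genes, of which 914 were in the table and 891 tested) and the naming rule were chosen with earlier results of these data known. The lists were compiled by hand from textbook knowledge. Genes with a mean of at least 1 CPM in the 8 libraries could be named if they were among the 12 largest called rises or falls with separate CPM ranges, the 3 called members of a list with the smallest adjusted p, the most abundant uncalled member of a list, the 8 genes furthest from both other groups or between them in each direction, or 1 of 23 set genes. Not all candidates are reported. Genes named outside the rule are marked as singled out after their values were seen.

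Alternatives were median-ratio scaling, DESeq2, no filter, a filter of 1 CPM in 4 libraries, the 8 libraries alone, no robust option, age or sex as a covariate, animals of 127 days, and leaving out each library. For sex, animal 060 was given the label of its white matter sample.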

Additional observations from a re-analysis of the deposited data

Results flagged for a closer look

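In groups of 4 animals the highest or lowest value was marked where its gap to the nearest other, divided by the range of the group, exceeded the critical value of Dixon for 4 samples. Of 408 groups of 4 values tested, 26 were marked, where chance marks about 1 in 20. Budesonide animal 031 lay apart from the other 3 of its group in IL1B at 3.43 CPM against 1.20 to 1.35 CPM, IL6 at 3.09 CPM against 0.129 to 0.344 CPM, ABCG5 at 4.72 CPM against 4.24 to 4.31 CPM and ANPEP at 4.72 CPM against 5.79 to 5.94 CPM. Budesonide animal 050 lay apart from the other 3 of its group in NR1I2 at 2.68 CPM against 1.29 to 1.49 CPM, TEF at 33.98 CPM against 21.9 to 22.6 CPM, ATP6V1C2 at 106 CPM against 150.0 to 155 CPM and WIPF3 at 99.5 CPM against 77.9 to 81.1 CPM. Budesonide animal 054 lay apart from the other 3 of its group in PER1 at 63.4 CPM against 98.4 to 101 CPM, GLUL at 422 CPM against 330.0 to 341 CPM, MX2 at 3.34 CPM against 1.63 to 1.86 CPM, ATG2A at 135 CPM against 204 to 210.1 CPM and TIMD4 at 23.7 CPM against 14.6 to 15.1 CPM. Unventilated animal 057 lay apart from the other 3 of its group in IL1R1 at 58.6 CPM against 40.8 to 43.04 CPM and IL18 at 9.35 CPM against 11.96 to 12.2 CPM. Unventilated animal 058 lay apart from the other 3 of its group in RNF14 at 42.4 CPM against 51.8 to 53.1 CPM. Unventilated animal 059 lay apart from the other 3 of its group in NFIL3 at 26.8 CPM against 17.01 to 18.6 CPM and HFE2 at 85.7 CPM against 45.1 to 49.7 CPM. Unventilated animal 060 lay apart from the other 3 of its group in SALL4 at 22.7 CPM against 14.8 to 15.9 CPM and IHH at 23.98 CPM against 14.5 to 14.9 CPM. Surfactant animal 007 lay apart from the other 3 of its group in TAT at 126 CPM against 35.2 to 50.6 CPM and FOXJ1 at 5.73 CPM against 0.463 to 1.26 CPM. Surfactant animal 032 lay apart from the other 3 of its group in AFP at 2071 CPM against 727 to 817 CPM. Surfactant animal 051 lay apart from the other 3 of its group in MX2 at 31.2 CPM against 16.3 to 17.9 CPM, EIF2AK3 at 80.99 CPM against 50.9 to 52.8 CPM and SH2D4B at 129.8 CPM against 22.8 to 37.3 CPM. Animal 054 was the male of 127 days among the budesonide livers.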

How the results depend on the processing

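Of the 137 genes named above, 122 were called against unventilated livers, 68 higher and 54 lower, and 104 of them kept the call under all 21 alternatives, which included leaving out each of the 12 liver libraries in turn. The other 18 lost it under at least 1, of which 14 with gestational age as a covariate and 16 between animals of 127 days, and none changed sign with age as a covariate or between animals of 127 days. The cause was not tested. Of the 15 not called, 5 passed the threshold under some alternative.

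The counts against unventilated, 3918 higher and 3985 lower, fell to 1499 and 1459 with age as a covariate and to 2008 and 1698 between animals of 127 days, a comparison that rests on 3 animals. Leaving out 1 library gave 3246 to 4227 higher and 3349 to 4444 lower. Median-ratio scaling, both other filters on low counts, a fit of 8 libraries, a fit without the robust option, sex as a covariate and DESeq2 kept each count within 1.5 times. Small counts of list members also moved without 1 library: sterol genes called higher from 1 to 3 without surfactant animal 049 and to 2 without surfactant animal 051 or unventilated animal 059, bile acid genes called higher from 1 to 2 without budesonide animal 048 or unventilated animal 059, and inflammatory genes called lower from 2 to 1 without the animals whose absence ended the IL1B call. Members called lower went from 1 to 2 for immediate early genes without budesonide animal 031, for p53 targets without budesonide animal 050 or surfactant animal 051, for proteasome subunits without surfactant animal 007, 049 or 051, and for lymphocyte markers without budesonide animal 054 or surfactant animal 049 or 051. Stellate cell markers called lower went from 0 to 1 without the last 3.

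Against surfactant, 674 were called higher and 1320 lower, and DESeq2 called 1123 and 2047. Leaving out 1 library gave 325 to 1074 higher and 682 to 1790 lower. The higher count moved by over 1.5 times without surfactant animal 007, 032, 049 or 051 or budesonide animal 031 or 048, and the lower count without surfactant animal 049 or budesonide animal 031 or 048. Of the genes printed with a test against surfactant, TAT and TSC22D3 lost that call under some alternative. No paired analysis was possible because the groups compared share no animal numbers.

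Depth was alike in both groups, and the interval of genes under 1 CPM is wide: a gene with no counts in the unventilated livers has only a lower bound of its fold. With 4 animals a group, 1 library per animal and age nearly tied to ventilation, the shares of ventilation, surfactant, budesonide and age in the comparison with unventilated livers cannot be told apart within it. The labelled sexes of these groups were unbalanced as well. The comparison with the surfactant group, also ventilated and aged 126 or 127 days, differs by label in budesonide.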
